A study of Mus musculus with 6 samples.

Results

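*E2f1*, *E2f2*, *E2f3*, *E2f4*, *E2f7* and *E2f8*, their dimerization partner *Tfdp1*, the pocket protein gene *Rbl1* and the E-type cyclin genes *Ccne1* and *Ccne2* were taken by symbol from a table of gene expression in germinal center (GC) B cells. All 10 were among the 23337 genes of the table, and all 10 were among the 9653 genes that passed a filter on low counts and were tested. Bulk RNA sequencing was done on 6 samples of GC B cells from mixed bone marrow (BM) chimeras, 3 *Hvem*-/- (2, 4 and 6) and 3 WT (1, 3 and 5). HVEM (*Tnfrsf14*) is a surface receptor of B cells that binds BTLA on T cells, and the study asked how its loss changes GC B cells that compete with WT cells. The hosts had reconstituted for 8 weeks and received NP-CGG in alum. GC B cells were taken at day 11 by sorting 50000 cells per sample that were B220+ IgDlo CD38lo GL7+ Fas+. *Hvem*-/- cells lacked the gene in all cells of the donor line, which was C57BL/6 and carried CD45.2. WT cells were C57BL/6 and carried CD45.1/2 by the submitters' labels and CD45.1 by the study's text. Genotype and donor line coincide, so loss of HVEM and other differences between the lines cannot be told apart. By the study's text *Hvem*-/- and WT cells came from the same chimeras, but the labels do not say which samples share one. No pairing was used, and every p-value here rests on the spread between the 6 samples, which may in part be technical.

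E2F proteins bind DNA as dimers with a DP protein and set the timing of genes needed for DNA synthesis. In resting cells the pocket proteins RB, p107 and p130 hold them in check, and cyclin-dependent kinases release them, with cyclin E and CDK2 acting late in G1. E2F1, E2F2 and E2F3 activate these genes, E2F4 acts mainly as a repressor with p107 and p130, and the atypical E2F7 and E2F8 repress them later in the cycle without a DP partner. GC B cells are among the fastest dividing cells of the mouse, and help from T cells sets how often they divide.

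Lower levels in *Hvem*-/- GC B cells were measured for the activators *E2f1* and *E2f2* and for *Ccne1*, with log2 fold changes of -0.73, -0.50 and -0.56. The other 7 members lay between -0.12 and 0.23. None of the 10 passed the threshold of an adjusted p under 0.01 in edgeR's quasi-likelihood test, which 0.186% of tested genes passed upward and 0.0311% downward. DESeq2 and limma also called 0 members past their adjusted threshold. With 0.05 as a limit on the unadjusted p, edgeR had 3 members lower and 0 higher, against a background of 5.22% of tested genes lower and 6.72% higher. The median log2 fold change of the members was -0.06, and that of all tested genes was -0.01. In bulk RNA, fewer cells that carry a transcript and less of it per cell cannot be told apart.

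E2F recognition letters were sought in the promoters of the members, because E2F genes and cyclin E genes are themselves known E2F targets. RefSeq promoter windows of GRCm38.p6, from 250 bases before to 50 bases after a gene start, matched 8 of the 10 members in 11 windows, and *E2f4* and *Ccne2* had no entry. The letters TTTCCCGC, TTTCGCGC, TTTGCCGC and TTTGGCGC were searched on both strands. They occurred in 5 of 8 members with a window (62.5%), in 2.6% of all 27025 genes with a window and in 5.19% of the 6979 tested genes with one. The members with a match were *E2f2*, *E2f3*, *E2f7*, *Tfdp1* and *Rbl1*, each with 1 match that no other match overlapped. *E2f1*, *E2f8* and *Ccne1* held none in their windows. A match describes letters and not a bound site. The 5 stretches are shown on the strand of the gene, with the matched letters in capitals. *E2f2* was lower in *Hvem*-/- cells, while the other 4 genes had log2 fold changes from -0.12 to 0.23.
E2f2 (chr4:136172302-136172323, plus strand): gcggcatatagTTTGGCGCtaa
E2f3 (chr13:29986056-29986085, minus strand): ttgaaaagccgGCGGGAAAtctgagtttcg
E2f7 (chr10:110745230-110745259, plus strand): cccgcgtccccGCGGGAAAcgctcccgcgt
Tfdp1 (chr8:13338697-13338726, plus strand): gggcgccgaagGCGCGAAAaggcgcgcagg
Rbl1 (chr2:157204534-157204563, minus strand): aagaaggcgatTTTCGCGCgctttgtcgcg

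The whole *E2f2* window that holds the match is given, since *E2f2* had the smallest p of the members. It also holds a CCAAT box, the letters bound by NF-Y, which occurred in 41.06% of all genes with a window. The E2F letters of *E2f2* lie from base 39 to base 46 when the RefSeq start is base 0, and those of *Rbl1* from base -18 to base -11. Counted from the GENCODE vM21 start of *E2f2*, its RefSeq start is base -120. A second *E2f2* window (chr4:136180532-136180831) held no E2F letters. The *E2f1* window starts its count 466 bases inside the gene as GENCODE vM21 annotates it, so it does not cover the sequence before that annotated start.
E2f2 (chr4:136172024-136172323, plus strand): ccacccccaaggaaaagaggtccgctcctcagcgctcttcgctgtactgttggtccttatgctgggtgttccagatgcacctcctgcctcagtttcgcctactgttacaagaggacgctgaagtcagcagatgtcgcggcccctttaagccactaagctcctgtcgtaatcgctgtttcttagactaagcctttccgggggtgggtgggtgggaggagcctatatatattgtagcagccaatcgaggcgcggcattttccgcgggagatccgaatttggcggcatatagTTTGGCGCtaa

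**Figure D1:**
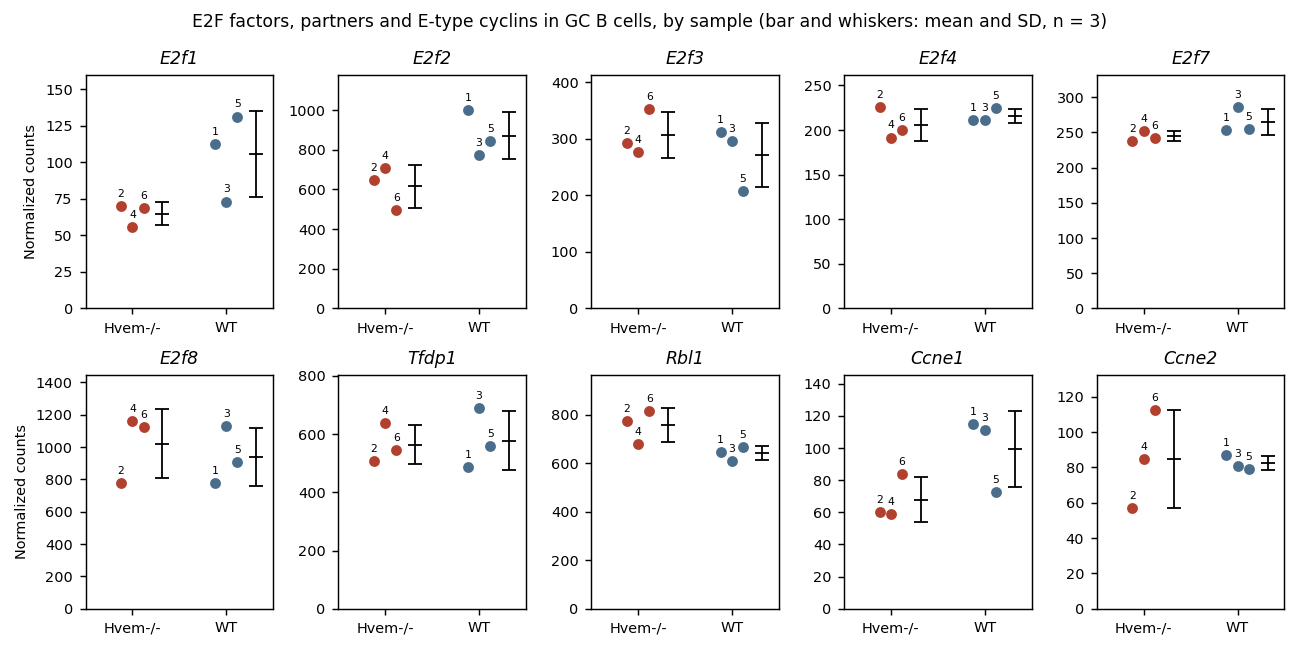
Normalized counts (vertical axes, from 0) of the 10 members in each sample, *Hvem*-/- on the left and WT on the right, with sample numbers above the points and mean and SD beside them. The 3 *Hvem*-/- samples lie below all 3 WT samples for *E2f1*, *E2f2* and *E2f7* and above them for *Rbl1*.

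*E2f1* encodes the founding activator of the family and lies at chr2:154559407-154569892 on the minus strand (GRCm38, GENCODE vM21). It had 70.2, 55.6 and 68.6 normalized counts in *Hvem*-/- samples 2, 4 and 6, against 112.3, 73.2 and 131.4 in WT samples 1, 3 and 5. Normalized counts are reads per gene divided by a size factor that evens out the depth of the samples. All *Hvem*-/- samples lay below all WT samples, and the gap between *Hvem*-/- 2 and WT 3 was small. *E2f1* averaged 64.8 ± 7.97 in *Hvem*-/- cells and 105.7 ± 29.7 in WT cells (SD, n = 3 each). Its log2 fold change was -0.73 with an SE of 0.253 and a 95% interval from -1.25 to -0.20 (edgeR unadjusted p = 0.0094, adjusted p = 0.239). These values rest on 58 to 63 reads per *Hvem*-/- sample and 66 to 176 per WT sample. Without WT 5 the log2 fold change was -0.52 (edgeR unadjusted p = 0.085).

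*E2f2* encodes an activator that is prominent in lymphocytes and lies at chr4:136172394-136196057 on the plus strand. It had 648.2, 705.6 and 495.4 normalized counts in *Hvem*-/- samples 2, 4 and 6, against 999.8, 771.2 and 841.6 in WT samples 1, 3 and 5. Again no *Hvem*-/- sample reached any WT sample. The means were 616.4 ± 108.7 in *Hvem*-/- cells and 870.9 ± 117.1 in WT cells (SD, n = 3 each). *E2f2* gave a log2 fold change of -0.50 with an SE of 0.143 and a 95% interval from -0.80 to -0.20 (edgeR unadjusted p = 0.0022, adjusted p = 0.152). With 419 to 799 reads per *Hvem*-/- sample and 695 to 1127 per WT sample, it was measured with less counting error than *E2f1*. The unadjusted p stayed under 0.05 in all 13 alternative analyses, which reuse the same 6 samples. Their adjusted p ranged from 0.0258, without the filter on low counts, to 0.580, without WT 1 (both edgeR).

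*E2f3*, the remaining activator, lies at chr13:29906575-29986063 on the minus strand. It had 291.8, 276.4 and 352.3 normalized counts in *Hvem*-/- samples and 312.4, 295.2 and 206.9 in WT samples. The groups overlapped, with *Hvem*-/- 6 the highest and WT 5 the lowest. The log2 fold change was 0.17 (SE 0.170, 95% interval -0.18 to 0.53, edgeR adjusted p = 0.736). Among the activators, only *E2f3* was not lower, and whether its difference departs from those of *E2f1* and *E2f2* was not tested.

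*E2f4*, the repressor that works with p107 and p130, lies at chr8:105297663-105305370 on the plus strand. Its normalized counts were 226.1, 191.6 and 199.8 in *Hvem*-/- samples and 210.9, 210.8 and 224.8 in WT samples. The ranges overlapped almost entirely. The log2 fold change was -0.07 (SE 0.161, 95% interval -0.41 to 0.26, edgeR adjusted p = 0.896).

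The atypical repressors differed little between genotypes. *E2f7*, at chr10:110745439-110787384 on the plus strand, had 238.4, 252.6 and 242.4 normalized counts in *Hvem*-/- samples and 253.9, 286.3 and 255.4 in WT samples. The groups did not overlap, but *Hvem*-/- 4 and WT 1 nearly met. Its log2 fold change was -0.12 (SE 0.150, 95% interval -0.43 to 0.19, edgeR adjusted p = 0.803). *E2f8*, at chr7:48866429-48881596 on the minus strand, had 775.2, 1163.9 and 1123.2 in *Hvem*-/- samples and 775.2, 1130.8 and 908.8 in WT samples. *Hvem*-/- 2 and WT 1 shared the lowest value, and the spread within each genotype exceeded the difference between them. *E2f8* had a log2 fold change of 0.12 (SE 0.152, 95% interval -0.20 to 0.44, edgeR adjusted p = 0.810). Exons of *E2f8* overlap those of *Gm2788* on the opposite strand by 336 bases, and exons of *E2f7* those of *1700020G17Rik* by 86 bases. Whether counting used strand is not given in the sources used here, so reads of those stretches cannot be told apart.

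*Tfdp1* encodes DP1, which pairs with the classical E2Fs, and lies at chr8:13338751-13378448 on the plus strand. It had 509.0, 637.6 and 545.0 normalized counts in *Hvem*-/- samples and 487.2, 688.0 and 557.8 in WT samples. The ranges overlapped, and the log2 fold change was -0.04 (SE 0.142, 95% interval -0.33 to 0.26, edgeR adjusted p = 0.949).

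*Rbl1* encodes p107, a pocket protein and itself a known E2F target, and lies at chr2:157145893-157204534 on the minus strand. It had 775.2, 680.0 and 817.0 normalized counts in *Hvem*-/- samples, against 645.4, 610.3 and 668.4 in WT samples. Every *Hvem*-/- sample was above every WT sample, and *Rbl1* was the only member with that order. The means were 757.4 ± 70.2 in *Hvem*-/- cells and 641.4 ± 29.2 in WT cells (SD, n = 3 each). The log2 fold change was 0.23 with an SE of 0.123 and a 95% interval from -0.02 to 0.49 (edgeR unadjusted p = 0.0732, adjusted p = 0.475). Among the members, then, 1 was higher and 3 were lower in *Hvem*-/- cells with no overlap of the samples. That order held upward for 8.58% and downward for 8.27% of the tested genes.

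Of the E-type cyclin genes, *Ccne1* was lower at an unadjusted p under 0.05 and *Ccne2* lay near 0, and the difference between their fold changes was not tested. *Ccne1* encodes cyclin E1, an activating subunit of CDK2, and lies at chr7:38097984-38107534 on the minus strand. It had 60.1, 59.2 and 83.9 normalized counts in *Hvem*-/- samples, against 115.2, 111.0 and 72.4 in WT samples. WT 5 fell between the *Hvem*-/- samples, so the groups overlapped. The means were 67.8 ± 14.0 in *Hvem*-/- cells and 99.5 ± 23.6 in WT cells (SD, n = 3 each). The log2 fold change was -0.56 with an SE of 0.253 and a 95% interval from -1.08 to -0.03 (edgeR unadjusted p = 0.0395, adjusted p = 0.384). Leaving out any of WT 1, WT 3, *Hvem*-/- 2 or *Hvem*-/- 4 took the unadjusted p above 0.05, up to 0.152. In DESeq2 it was 0.0622, which left 2 members lower by that tool.

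*Ccne2* encodes cyclin E2, which activates the same kinase, and lies at chr4:11191351-11204779 on the plus strand. It had 56.8, 84.8 and 112.3 normalized counts in *Hvem*-/- samples and 86.9, 81.0 and 79.2 in WT samples. The *Hvem*-/- samples spread to both sides of the closely spaced WT samples. Its log2 fold change was 0.03 (SE 0.253, 95% interval -0.50 to 0.56, edgeR adjusted p = 0.978), and without *Hvem*-/- 6 it was -0.21. Exons of *Ccne2* overlap 474 bases of *Ints8* on the opposite strand, whose reads cannot be told apart there. The ratio of *Ccne1* to *Ccne2* was taken in reads per kilobase of transcript scaled to library size (RPKM). It was 1.59, 1.05 and 1.12 in *Hvem*-/- samples and 1.99, 2.06 and 1.38 in WT samples. The ratio of *Hvem*-/- 2 lay above that of WT 5, so the groups overlapped. Which cyclin gene was higher depends on the length used. Per kilobase of coding sequence *Ccne1* lay below *Ccne2* in *Hvem*-/- 4 (17.1 and 24.7), *Hvem*-/- 6 (24.2 and 32.7) and WT 5 (21.1 and 23.3).

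**Figure D2:**
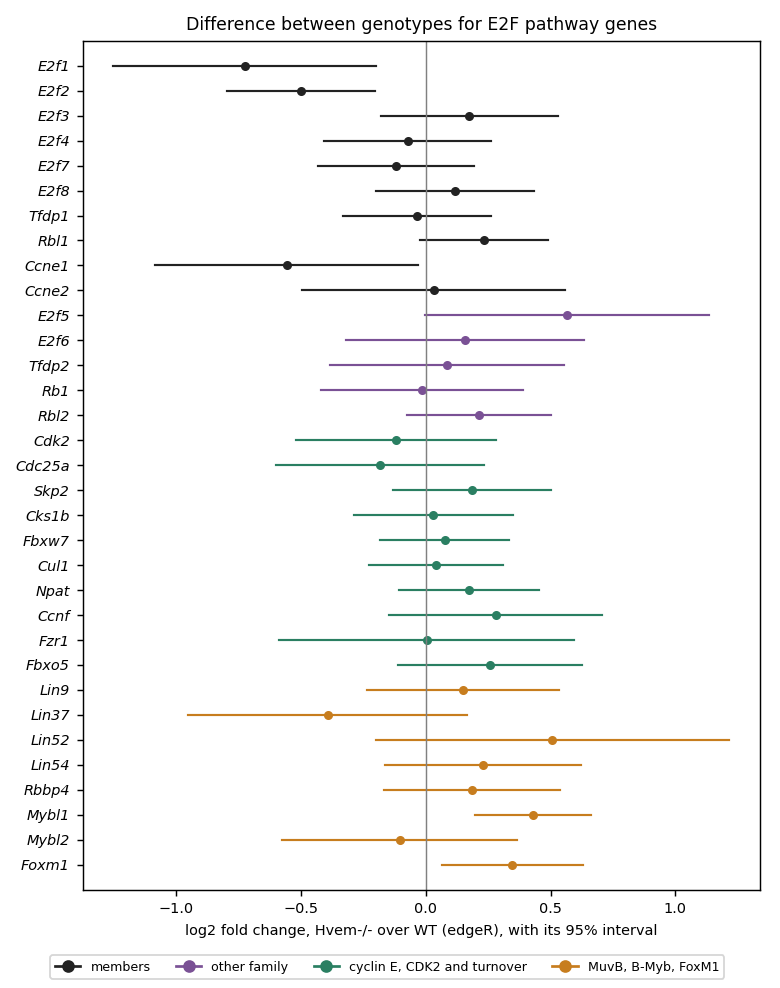
Log2 fold change of *Hvem*-/- over WT (horizontal axis) with its 95% interval from edgeR for each member and for the related genes tested. The intervals of *E2f1*, *E2f2* and *Ccne1* lie below 0, those of *Mybl1* and *Foxm1* above 0, and those of the other genes span 0.

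Levels of different genes were compared only per length, as RPKM over the transcript with the longest coding sequence. The members ranked *E2f8*, *Tfdp1*, *E2f2*, *Rbl1*, *E2f4*, *E2f3*, *E2f7*, *Ccne1*, *E2f1* and *Ccne2*, with means over the 6 samples from 94.1 to 9.85 RPKM. Neighbors in that order overlapped in their ranges over the samples, except that *Rbl1* lay above *E2f4* and *E2f4* above *E2f3*. *E2f8* averaged 97.9 ± 20.1 RPKM in *Hvem*-/- cells and 90.3 ± 16.9 RPKM in WT cells, while *E2f1* averaged 8.40 ± 1.05 RPKM in *Hvem*-/- cells and 13.8 ± 3.92 RPKM in WT cells (SD, n = 3 each). By transcript length the order of the means differed by genotype. *Rbl1* stood above *E2f2* in *Hvem*-/- cells (55.2 and 46.1 RPKM) and below it in WT cells (46.9 and 65.3 RPKM). *Ccne2* stood above *E2f1* in *Hvem*-/- cells (9.96 and 8.40 RPKM) and below it in WT cells (9.74 and 13.8 RPKM). *Ccne1* stood below *E2f7* in *Hvem*-/- cells and just above it in WT cells (17.7 and 17.2 RPKM). Single samples broke each order. *Rbl1* was below *E2f2* in *Hvem*-/- 4 (49.5 and 52.6 RPKM). *Ccne2* was below *E2f1* in *Hvem*-/- 2 (6.74 and 9.16 RPKM) and just above it in WT 3 (9.53 and 9.48 RPKM). *Ccne1* was below *E2f7* in WT 5 (12.9 and 16.7 RPKM). Dividing by coding length instead put *E2f2* first and *E2f1* last, and 3 of 10 ranks were kept. By coding length *E2f2* stood above *Rbl1* in both genotypes (164.3 and 84.1 RPKM in *Hvem*-/- cells, 233.0 and 71.5 in WT cells). *E2f7* likewise stood above *Ccne1* in both. The order of the means of *Ccne2* and *E2f1* still differed by genotype, with *Ccne1* between them. In *Hvem*-/- cells *Ccne2*, *Ccne1* and *E2f1* averaged 24.7, 19.6 and 17.8 RPKM, and in WT cells 24.2, 28.9 and 29.1 RPKM. *Hvem*-/- 2 (*Ccne2* 16.7 and *E2f1* 19.4 RPKM) and WT 3 (23.6 and 20.1 RPKM) went against the order of *Ccne2* and *E2f1*.

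Of the RPKM summed over the 8 E2F genes, the activators *E2f1*, *E2f2* and *E2f3* made up 32.6%, 29.9% and 26.1% in *Hvem*-/- samples and 42.3%, 31.8% and 35.7% in WT samples. The share was 29.5 ± 3.28% in *Hvem*-/- cells and 36.6 ± 5.31% in WT cells (SD, n = 3 each), and *Hvem*-/- 2 and WT 3 overlapped. *E2f7* and *E2f8* together made up 43.9 ± 5.55% in *Hvem*-/- cells and 40.0 ± 5.79% in WT cells, and *E2f4*, *E2f5* and *E2f6* 26.6 ± 4.15% in *Hvem*-/- cells and 23.4 ± 1.52% in WT cells. *E2f2* alone held 18.0 ± 3.69% of the sum in *Hvem*-/- cells and 24.4 ± 3.82% in WT cells. These shares use transcript length, are descriptions and were not tested. By coding length *E2f2* lay above *E2f8* in every sample except *Hvem*-/- 6 (131.5 and 153.5 RPKM), so the makeup depends on the length used.

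**Figure D3:**
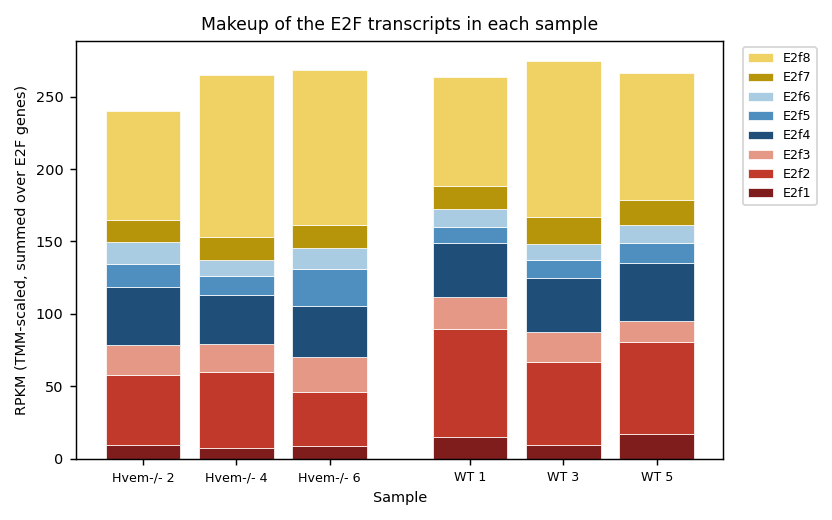
RPKM by transcript length of the 8 E2F genes stacked for each sample (horizontal axis), *Hvem*-/- samples on the left and WT samples on the right. The red segments of *E2f1*, *E2f2* and *E2f3* hold 26.1% to 32.6% of the sum in *Hvem*-/- samples and 31.8% to 42.3% in WT samples, and *E2f8* holds the largest segment except in WT 1, where *E2f2* is slightly larger.

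The rest of the family and its pocket proteins did not pass the test, with 0 of 5 past the adjusted threshold and 0 of 5 at an unadjusted p under 0.05 in either direction in edgeR. *E2f5*, a repressor related to *E2f4*, had 78.0, 63.6 and 127.7 normalized counts in *Hvem*-/- samples and 53.7, 59.9 and 65.7 in WT samples, so *Hvem*-/- 6 stood above the rest. Its log2 fold change was 0.57 (SE 0.274, edgeR adjusted p = 0.421). *Rbl2*, which encodes p130, was at 0.21 (SE 0.138), the repressor *E2f6* at 0.16, the DP partner *Tfdp2* at 0.08, and *Rb1*, the retinoblastoma gene, at -0.02.

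Genes around cyclin E and CDK2 also lay near 0, and 10 of the 12 listed were tested. In edgeR 0 of 10 passed the adjusted threshold and 0 of 10 had an unadjusted p under 0.05, with a median log2 fold change of 0.06. The kinase gene *Cdk2* was at -0.12 and its activating phosphatase *Cdc25a* at -0.19. Of the ubiquitin ligase subunits, *Skp2* was at 0.19, *Fbxw7*, which targets cyclin E, at 0.07, *Cul1* at 0.04, and the SKP2 cofactor *Cks1b* at 0.03. The histone gene activator *Npat*, a cyclin E substrate, was at 0.17, *Ccnf* at 0.28, and the APC/C regulators *Fzr1* and *Fbxo5* at 0.00 and 0.26. The CDK inhibitor genes *Cdkn1a* and *Cdkn1b* had too few reads to be tested, with means of 11.7 and 10.2 normalized counts in *Hvem*-/- cells and 5.28 and 8.19 in WT cells.

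The MuvB complex joins p130 and E2F4 in resting cells and B-Myb and FOXM1 in dividing cells, where it serves late cell-cycle genes. Of 8 genes on that list, 0 passed the adjusted threshold and 2 were higher at an unadjusted p under 0.05 in edgeR, with a median log2 fold change of 0.21. Among all tested genes 6.72% were higher at the unadjusted limit. *Mybl1*, which encodes A-Myb and is abundant in GC B cells, had 5606, 5147 and 6766 normalized counts in *Hvem*-/- samples, against 4586, 4271 and 4117 in WT samples. Its groups did not overlap, an order that held upward for 8.58% of tested genes. The log2 fold change of *Mybl1* was 0.43 (SE 0.111, edgeR adjusted p = 0.101). *Foxm1* had 778.6, 809.8 and 604.1 in *Hvem*-/- samples and 559.5, 631.4 and 531.7 in WT samples, where *Hvem*-/- 6 fell within the WT range. Its log2 fold change was 0.35 (SE 0.135, edgeR adjusted p = 0.303). *Mybl2*, the B-Myb gene, was at -0.10. Of the MuvB core, *Lin52* was at 0.51, *Lin54* at 0.23, *Rbbp4* at 0.18, *Lin9* at 0.15 and *Lin37* at -0.39.

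Known E2F targets of the G1/S transition were mostly lower in *Hvem*-/- cells, without passing the adjusted threshold. Of 51 listed and tested, 0 passed in edgeR, DESeq2 or limma, while 14 had an unadjusted p under 0.05 with a lower level and 1 with a higher level. At that limit 5.22% of all tested genes were lower and 6.72% higher. In all, 34 of the listed genes lay below 0 and 17 above, with a median log2 fold change of -0.16. The smallest p belonged to *Ung*, a glycosylase that removes uracil from DNA. *Ung* had 117.0, 123.6 and 66.2 normalized counts in *Hvem*-/- samples, against 203.1, 163.1 and 212.1 in WT samples, with no overlap. Its log2 fold change was -0.91 (SE 0.221, edgeR adjusted p = 0.0738). *Rpa2*, a subunit of the single-strand DNA binding complex, was at -0.70 (SE 0.177), the origin licensing factor *Cdc6* at -0.50 (SE 0.166), and the replicative helicase subunits *Mcm3* and *Mcm2* at -0.42 (SE 0.122) and -0.40 (SE 0.138). *Ezh2*, the histone methyltransferase that GC B cells depend on, went the other way at 0.38 (SE 0.118). The count of 14 was 6 without WT 5 and 7 without WT 3 or without *Hvem*-/- 2. The E2F letters given above occurred in 19 of the 41 G1/S genes with a promoter window (46.34%).

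Genes of the G2/M transition, served by MuvB, B-Myb and FOXM1 more than by E2F, were higher in *Hvem*-/- cells. All 28 listed genes lay above 0, with a median log2 fold change of 0.54, and 9 rose past the adjusted threshold in edgeR. Of all tested genes, 0.186% rose past it. *Mki67*, the proliferation marker, had 26621, 32235 and 37327 normalized counts in *Hvem*-/- samples, against 14450, 18475 and 17699 in WT samples. *Mki67* rose by 0.92 on the log2 scale (SE 0.118, edgeR adjusted p = 3.3e-04). The kinetochore genes *Cenpf* and *Cenpe* rose by 0.85 and 0.61, the spindle genes *Aspm* and *Hmmr* by 0.77 and 0.69, and *Ccnb1*, the cyclin of mitotic entry, by 0.79. With edgeR 22 of the 28 were higher with an unadjusted p under 0.05, against 6.72% of tested genes, and DESeq2 called 14 past the adjusted threshold. Leaving out a sample left 0 past it in edgeR without WT 1, 2 without WT 5, 3 without *Hvem*-/- 4 and 4 without WT 3, while the median stayed at 0.51 or above. The CHR letters TTTGAA, searched on both strands, occurred in 73.91% of the 23 G2/M genes with a window and in 14.46% of tested genes, and the E2F letters in 4.35% of the G2/M genes. The lists had been chosen with earlier results of these data known, and the difference between them was not tested.

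**Figure D4:**
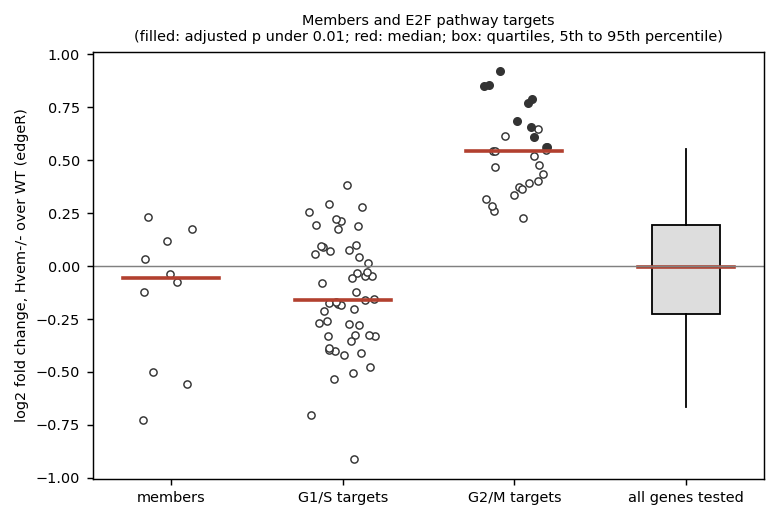
Log2 fold change of *Hvem*-/- over WT (vertical axis) for the members, the G1/S targets and the G2/M targets, each point a gene, filled where the edgeR adjusted p was under 0.01, with all tested genes as a box of quartiles and lines from the 5th to the 95th percentile. Medians (red) are -0.06, -0.16, 0.54 and -0.01, from left to right, and filled points occur only among the G2/M targets.

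G+C content of the transcript moved with the fold change over all tested genes. The median log2 fold change was 0.21 in the decile of genes with the lowest G+C content and -0.26 in the decile with the highest. *E2f1* has a G+C content of 57.9% and belongs to the highest decile, *E2f2* with 56.6% and *E2f4* with 56.1% to the next, and *Rbl1* with 42.1% and *Ccne2* with 36.3% to the lowest 2. Within its decile *E2f1* lay at percentile 12.1 of the log2 fold changes, *E2f2* at percentile 17.5 and *Ccne1*, with 52.7% G+C, at percentile 6.93. After each sample was corrected for G+C content and length, the log2 fold changes were -0.48 for *E2f1* (edgeR unadjusted p = 0.0616), -0.31 for *E2f2* (0.0156), -0.45 for *Ccne1* (0.0891) and 0.08 for *Rbl1*. Of the 3 members that were lower with an unadjusted p under 0.05, 1 was left. The part of G+C content in the differences was not tested further.

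**Figure D5:**
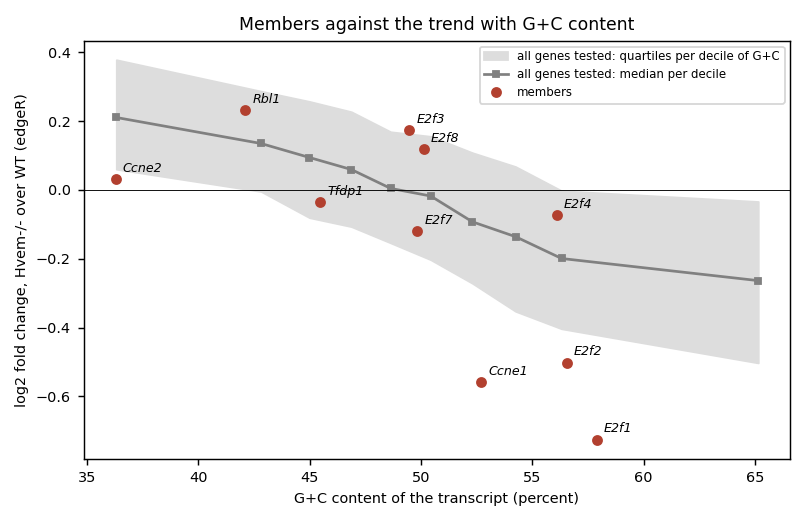
Log2 fold change of *Hvem*-/- over WT (vertical axis) against G+C content of the transcript (horizontal axis, percent), with the 10 members as points and all tested genes as the median (line) and quartiles (band) per decile of G+C content. *E2f1*, *E2f2* and *Ccne1* lie below the band of their deciles, *Ccne2* just below it and *E2f3* just above it. The median falls by decile to -0.26 at the highest G+C content.

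The pattern of *E2f1* over the 6 samples was compared with that of every tested gene, as the root mean square difference of log2 CPM (reads scaled to library size) after centering each gene. The nearest were *Dhodh* (0.107), *Athl1* (0.125), *Hgs* (0.133), *Bin1* (0.161) and *Tead2* (0.163). These genes were picked for their likeness to *E2f1* over the same samples, so a lower level in *Hvem*-/- cells follows from the choice. Their log2 fold changes were -0.89, -0.65, -0.54, -0.76 and -0.55, and none passed the adjusted threshold. *Dhodh* and *Athl1* had low levels, with 11.5 to 29.9 and 15.9 to 38.8 normalized counts. Among the members *E2f2* was nearest at 0.319, rank 510, and *E2f8* farthest at 0.604, rank 7301.

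The samples held 2505918 to 3321048 reads in *Hvem*-/- cells and 2557741 to 3636163 in WT cells. *Tnfrsf14* had 0, 0 and 4 reads in *Hvem*-/- samples and 13, 11 and 17 in WT samples (edgeR adjusted p = 0.178). *Bcl6*, the transcription factor that defines GC B cells, averaged 2752 ± 29.2 normalized counts in *Hvem*-/- cells and 2747 ± 145 in WT cells (SD, n = 3 each). Of the 11 GC B cell markers, all were detected, and with an unadjusted edgeR p under 0.05 4 had a lower level (*Cd79a* at -0.45, *Cd79b* at -0.35, *S1pr2* at -0.31 and *Pax5* at -0.30 on the log2 scale) and 1 a higher level (*Rgs13* at 0.86). None of the 11 passed the adjusted threshold. Among all tested genes 5.22% were lower and 6.72% higher with an unadjusted edgeR p under 0.05. Summed T cell markers (12 genes) gave 99.2 to 159.6 CPM in *Hvem*-/- samples and 170.9 to 187.2 in WT samples, and 4 of the 8 tested (*Cd3e*, *Cd4*, *Cd28* and *Tcf7*) had a lower level with an unadjusted edgeR p under 0.05. *Cd8a* at -1.14 and *Bcl11b* at -0.21 on the log2 scale did not reach that limit, nor did *Il7r* at 0.50 and *Lck* at 0.19, which lay above 0. Follicular B cell markers (5 genes) summed to 199.2 to 220.7 in *Hvem*-/- samples and 256.0 to 352.2 in WT samples, and *Fcer2a*, which encodes CD23, fell by 1.01 on the log2 scale (edgeR adjusted p = 0.00704). Myeloid markers (9 genes, *C1qa* at 0 throughout) summed to 48.7 to 148.1 in *Hvem*-/- samples and 73.4 to 103.2 in WT samples, and plasma cell markers (5 genes) to 581.6 to 676.3 in *Hvem*-/- samples and 591.9 to 768.4 in WT samples. The part of these cells in the differences of the members was not tested.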

How the data were processed

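Amplified cDNA was sequenced from both ends, and the authors used STAR for alignment and DESeq2 for their tests (no version stated). As upstream tools, the submitters' notes give TopHat2 2.0.8b, Cufflinks 2.1.1 and CASAVA, with mm10 as build. Each deposited value is a signal: the reads of a gene over the size factor of its sample. Columns with the authors' own comparison (log2 fold change, its error, a Wald score, p-values) were deposited too and were not used. All values (100%) of a sample were whole multiples of its smallest value at a relative tolerance of 1e-06, and dividing by that value recovered the reads. No column of samples was unmapped. Genotypes were compared by the quasi-likelihood test of edgeR 4.0.16 under R 4.3.3 (two-sided, TMM, filterByExpr), with Benjamini-Hochberg adjustment over every tested gene and a threshold of 0.01. Means and SDs are of the deposited normalized values. Alternatives were DESeq2 1.42.0, limma 3.58.1 on log2(value + 1) or log2(value + 8), other size factors, no filter on low counts, loess correction (span 0.5) for G+C content and length of GENCODE vM21 transcripts (known for 98.8% of tested genes) and leaving out each sample. With 3 against 3 samples an exact permutation test cannot go below p = 0.1, so none was used. Functions were tested on simulated data. The members and the 11 gene lists were chosen with earlier results of these data known. Named genes are all members, *Tnfrsf14*, every gene of the short lists, the 6 smallest p of the G1/S and G2/M lists, markers of the sort or of other cell types, and the 5 genes nearest to *E2f1*.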

Additional observations from a re-analysis of the deposited data

How the results depend on the processing

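The 13 alternatives left 0 members past an adjusted p of 0.01, and 0 at 0.05 in the main analysis. *E2f1*, *E2f2*, *E2f7* and *Ccne1* stayed below 0 and *E2f3* and *Rbl1* above 0 in all 13, with ranges of -0.92 to -0.48 for *E2f1*, -0.61 to -0.31 for *E2f2* and -0.74 to -0.44 for *Ccne1*. The sign turned for *E2f4* after G+C correction (0.12), for *E2f8* without WT replicate 1 (-0.0028), for *Tfdp1* without *Hvem*-/- replicate 2 (0.03) and without WT replicate 3 (0.10), and for *Ccne2* with limma at pseudocounts 1 (-0.013) and 8 (-0.0084), after G+C correction (-0.28) and without *Hvem*-/- replicate 6 (-0.21). Leaving out 1 sample gave -0.0028 to 0.28 for *E2f8*, -0.15 to 0.10 for *Tfdp1* and -0.21 to 0.25 for *Ccne2*. Members lower at an unadjusted p under 0.05 numbered 1 after G+C correction, against 3. Leaving out 1 sample at a time gave 2 to 3 lower and 0 to 1 higher members (*Rbl1*, without *Hvem*-/- 4), a member median of -0.12 (without WT 1) to -0.023, 6 to 15 G1/S targets lower and 1 to 2 higher, and 0 to 10 G2/M targets past the adjusted threshold. G2/M targets past it numbered 14 in DESeq2 and 4 after G+C correction, against 9, and G1/S targets 1 without the filter on low counts, against 0. With coding length, 3 of 10 RPKM ranks were kept. Over all genes, 21 passed the adjusted threshold, 52 in DESeq2, 84 without the filter, 10 after G+C correction and 3 without WT 1. The cause of these shifts was not tested. No paired analysis was run, because the labels do not say which *Hvem*-/- and WT samples share a chimera. Counts of 51 to 176 reads limit *E2f1*, *Ccne1* and *Ccne2*.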

Other observations

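Across all genes with a promoter window, the letters of the E2F and CHR motifs were set against the fold change as a description. The 362 tested genes whose window held E2F letters had a median log2 fold change of -0.0005, against -0.01 for all 6979 tested genes with a window. Of the 362, 9.12% were higher and 5.52% lower in *Hvem*-/- cells at an unadjusted edgeR p under 0.05, against 6.46% and 5.36% of the 6979. For the 308 genes with E2F and no CHR letters, these shares were 7.14% and 5.84%. The 1009 genes whose window held CHR letters had a median of 0.03, with 11.79% higher and 5.05% lower. Of the 13 genes with a window that rose past the adjusted threshold, 7 held CHR letters and 0 held E2F letters. Among the 6979 the shares were 14.46% and 5.19%. With so few genes, 0 with E2F letters cannot be told apart from the share of 5.19%.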
